A study of Mus musculus with 15 samples.

Results

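The genes described here bring cystine into the cell, turn it into glutathione and set how readily membrane lipids are oxidised in the presence of iron. They are a fixed list of 10 mouse genes, *Slc7a11*, *Slc3a2*, *Gclc*, *Gclm*, *Gss*, *Gpx4*, *Aifm2*, *Acsl4*, *Tfrc* and *Fth1*, each found once, by its Ensembl identifier, among the 41388 genes counted. The list was chosen by a measured value, the absence of *Slc7a11* counts in clone E6.2, so the level of *Slc7a11* is described without a test, and so are all 10 genes in E6.2 against the parental line. All 10 passed the filter on low counts, which kept 13904 genes for testing.

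RNA was sequenced from A20 parental cells, a B-cell lymphoma line of a BALB/c mouse that is wild type for the forkhead transcription factor gene *Foxp1*, and from 4 CRISPR clones of it. E6.1 and E6.2 carry a mutation in *Foxp1* exon 6, and E7.1 and E7.2 carry one in exon 7. To make them, a plasmid for Cas9 and the guide RNA was electroporated into A20 cells, which were sorted for GFP and cloned by limiting dilution to individual cells. Each clone is therefore the progeny of 1 cell, and what its *Foxp1* mutation did and what that cell already carried cannot be told apart within a clone. Each of the 5 lines gave 3 libraries, from separate passages. According to the study's methods A20 cells were kept in serum-containing medium with β-mercaptoethanol, a thiol known to reduce cystine in the medium so that cells can take up the sulphur without the cystine transporter.

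Total counts lay between 26328054 and 39181530 per library, so that the smallest level taken as measurable, 3 counts, stood between 0.0751 and 0.118 CPM (counts scaled to a common library size, normalized by the trimmed mean of M values, TMM). *Foxp1* itself lay at 138 ± 32.7 CPM (mean ± SD of 3) in the parental line, and its log2 fold change was -0.41 for E6.1, -0.39 for E6.2, -1.29 for E7.1 and -1.69 for E7.2. Only the falls in E7.1 (adjusted p = 0.00688) and E7.2 (adjusted p = 0.00116, edgeR's quasi-likelihood test, Benjamini-Hochberg adjustment over all 13904 genes) passed the threshold of 0.05, and RNA level does not read out a frameshift. The 8 B-cell markers summed to between 3700 and 5170 CPM per library, none of them at 0 in all libraries, against at most 0.669 CPM for 6 T-cell markers, 0.93 CPM for 6 fibroblast markers and 32.4 CPM for 6 macrophage markers.

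Cystine, the oxidised dimer of cysteine that predominates outside cells, enters through system xc-, an exchanger of cystine for glutamate made of the transport subunit Slc7a11 and the chaperone subunit Slc3a2. Inside the cell it is reduced to cysteine and built into glutathione by glutamate-cysteine ligase, the catalytic Gclc with its modifier Gclm, and then by glutathione synthetase, Gss. Gpx4 spends glutathione to reduce lipid peroxides in membranes, and when it fails, iron drives the chain of lipid oxidation that ends in ferroptosis. Acsl4 loads polyunsaturated fatty acids into membranes and so provides the lipids that oxidise, Aifm2 (FSP1) keeps coenzyme Q reduced as a defence apart from Gpx4, the transferrin receptor Tfrc imports iron, and the ferritin heavy chain Fth1 stores it.

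The sequence before the start of *Slc7a11* is shown because this gene carries the largest difference among the 10. *Slc7a11* (ENSMUSG00000027737) lies on the reverse strand of chromosome 3 of GRCm38, from 50364936 to 50443613. The 250 bases upstream of its start in RefSeq (GRCm38.p6, chr3:50443614-50443863, reverse strand) are given 5′ to 3′, with motif matches in capitals.
*Slc7a11* promoter: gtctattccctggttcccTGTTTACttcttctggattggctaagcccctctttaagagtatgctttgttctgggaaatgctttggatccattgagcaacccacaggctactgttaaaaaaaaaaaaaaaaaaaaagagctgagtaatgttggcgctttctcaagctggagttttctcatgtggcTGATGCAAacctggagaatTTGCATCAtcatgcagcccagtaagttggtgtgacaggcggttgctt
The capitals mark, in this order, a forkhead core (TGTTTAC) that begins 232 bases before the start, and a C/EBP-ATF response element (TGATGNAA, the kind of site that Atf4 binds) on each strand, beginning 66 and 47 bases before the start. The 3 matches do not overlap. Both strands of the 250 bases upstream of 32851 mouse gene starts were searched, and the forkhead core was present in 3.17% and the C/EBP-ATF element in 3.45% of them. An antioxidant response element (TGACNNNGC, the site of Nrf2) was present in 10.2% and a forkhead variant (TGTTTGC) in 4.3%. Of the 9 listed genes matched to the table, which left out *Gclc*, only *Slc7a11* held the forkhead core or the C/EBP-ATF element, only *Gclm* held the antioxidant response element, on the reverse strand beginning 134 bases before the start, and none held the forkhead variant. A match of letters is a description of the sequence and not evidence that a factor binds.

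Iron-responsive elements are shown for the iron genes *Tfrc* and *Fth1* only, and were not looked up in the other genes on the list. The elements are RNA hairpins bound by iron regulatory proteins when iron is scarce, which block translation of the ferritin mRNA and protect the transferrin receptor mRNA from decay. Each was found as a bulged C, a stem of 5 pairs and a loop of CAGTG followed by A, C or T in the GENCODE transcripts of GRCm38. It is printed 5′ to 3′ on the forward strand as DNA with 5 of the loop's bases in capitals.
*Fth1*, chr19:9982733-9982760, upstream of the coding sequence: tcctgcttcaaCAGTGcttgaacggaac
*Tfrc*, chr16:32631220-32631247, downstream of the coding sequence: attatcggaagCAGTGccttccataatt
*Tfrc*, chr16:32631599-32631626, downstream of the coding sequence: attatcgggagCAGTGtcttccataatg
*Tfrc*, chr16:32631664-32631691, downstream of the coding sequence: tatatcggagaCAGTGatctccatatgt
*Tfrc*, chr16:32631711-32631738, downstream of the coding sequence: attatcgggaaCAGTGtttcccataatt
*Fth1* held 1 such element in its 5′ untranslated region and *Tfrc* 4 in its 3′ untranslated region. Of 21877 protein-coding genes, 222 (1.01%) held at least 1 anywhere in a transcript.

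In the annotation of the files (GRCm38), the other listed genes on the forward strand are *Gclc* at chr9:77754535-77794485, *Gclm* at chr3:122245557-122269984, *Gpx4* at chr10:80047166-80056439, *Aifm2* at chr10:61715263-61739260, *Tfrc* at chr16:32608920-32632794 and *Fth1* at chr19:9982703-9985092. On the reverse strand are *Slc3a2* at chr19:8706882-8723369, *Gss* at chr2:155563181-155592810 and *Acsl4* at chrX:142317993-142390535. To compare the genes with each other, levels were divided by exonic length and are given as CPM per kb in parental cells (mean ± SD, n = 3). *Fth1* stood highest at 1319 ± 340, followed by *Slc3a2* at 101 ± 2.77, *Tfrc* at 49.6 ± 3.93 and *Gpx4* at 46.2 ± 11.3. *Gclc* at 23.9 ± 3.34 and *Acsl4* at 23.4 ± 3.42 came next, then *Gclm* at 15.7 ± 2.86. *Slc7a11* at 2.63 ± 1.09, *Gss* at 2.14 ± 0.162 and *Aifm2* at 1.63 ± 0.10 were the lowest. The parental libraries overlapped between *Tfrc* and *Gpx4*, between *Gclc* and *Acsl4*, and between *Slc7a11* and *Gss*, and were separate between the other neighbours in this order. *Fth1* and *Gpx4* have processed pseudogenes, and read pairs that aligned at several places were not counted, so their levels are uncertain. *Gss* shares 15.44% of its exonic bases with other genes, *Aifm2* 5.65% and *Gclm* 5.34%, and pairs that fell on such shared bases were not counted.

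**Figure D1:**
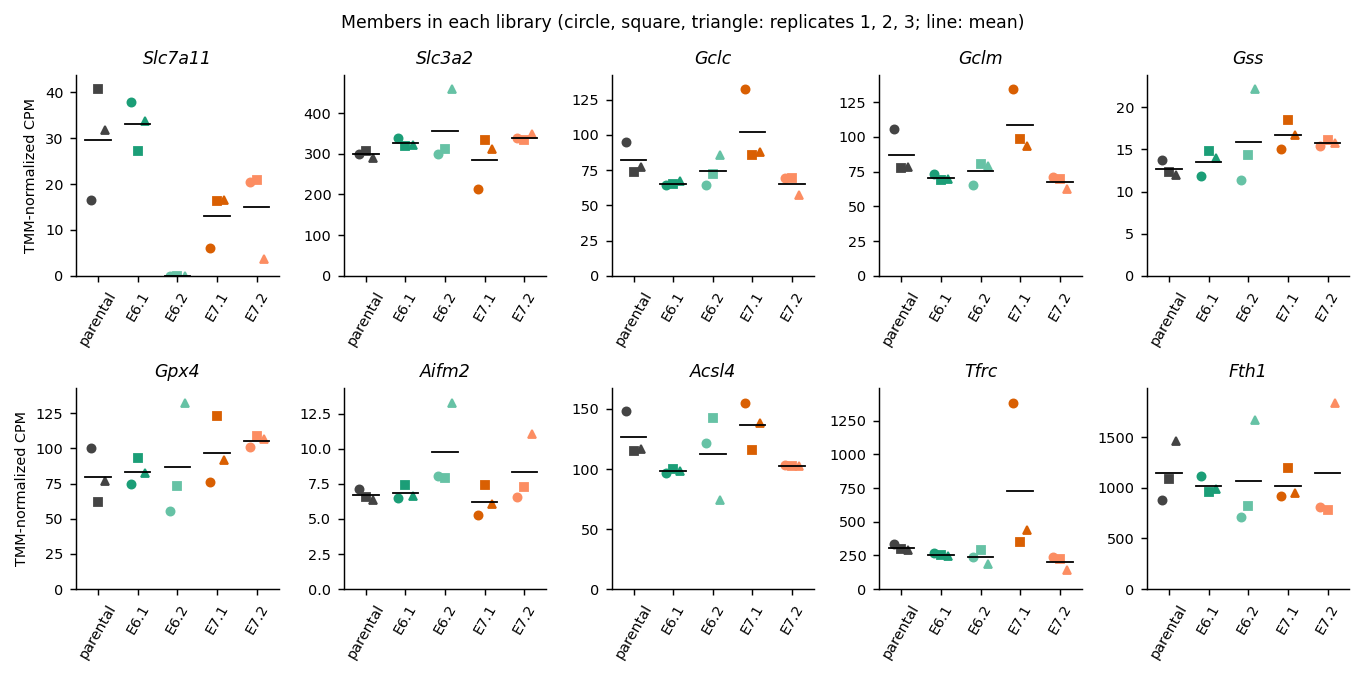
Each panel shows 1 gene as TMM-normalized CPM (vertical axis, from 0) in the 15 libraries of A20 parental cells and the 4 clones, with a symbol per replicate and a line at the mean of 3. *Slc7a11* is at 0 in all 3 libraries of E6.2, and *Tfrc* reaches 1384 CPM in replicate 1 of E7.1.

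*Slc7a11*, the transport subunit, had 0 counts in all 3 libraries of E6.2. In parental cells it held 544, 1523 and 1091 counts, which is 16.4, 40.7 and 31.8 CPM. The E6.1 libraries lay at 38.0, 27.2 and 33.9 CPM, the E7.1 libraries at 6.05, 16.4 and 16.6 CPM, and the E7.2 libraries at 20.4, 20.8 and 3.69 CPM. E6.2 was thus the one line separate from every other, while the parental range overlapped that of each of the other 3 clones, and replicate 1 of the parental line and of E7.1 and replicate 3 of E7.2 were the low libraries of their lines. In these bulk samples, fewer cells that express a gene and less of its RNA per cell cannot be told apart.

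Set against the highest floor of the E6.2 libraries, 3 counts or 0.118 CPM, the mean level of *Slc7a11* was at least 251-fold higher in parental cells and at least 280-fold higher in E6.1. It was at least 110-fold higher in E7.1 and 127-fold higher in E7.2, and even the lowest library with counts, replicate 3 of E7.2, was at least 31.2-fold higher. These bounds cover counting error only. The means ran, from high to low, 33.0 ± 5.44 CPM in E6.1, 29.6 ± 12.2 in parental cells, 14.98 ± 9.78 in E7.2 and 13.0 ± 6.02 in E7.1 (SD, n = 3), and each neighbouring pair in this order overlapped. All E6.1 libraries, however, lay above all libraries of E7.1 and of E7.2. Against parental cells the fitted log2 fold change was 0.16 (standard error 0.55) for E6.1, -1.19 (0.56) for E7.1 and -0.98 (0.55) for E7.2.

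A gene at 0 in every library of a line was rare among those tested. E6.2 had 17 such genes, and the other lines had between 5 (parental cells) and 21 (E7.1). By mean level in the other lines, *Slc7a11* ranked 1 of the 17 in E6.2, at 22.7 CPM.

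Of the genes tested around *Slc7a11*, none was at 0 in E6.2, and their fitted log2 fold changes against the parental line had both signs. Several of these were smaller than their standard errors. Within 2 Mb of its start 25 genes begin, itself included, and 11 others were expressed highly enough to test, all of them on the side of higher coordinates. Their log2 fold changes in E6.2 against parental cells ran from -0.69 (standard error 0.52) in *Mgarp* to 0.69 (0.25) in *5031434O11Rik*, with a median of -0.17. *Mgarp* varied widely between parental libraries, at 30.5 ± 24.5 CPM, and its log2 fold change was -1.34 (0.52) in E6.1. The nearest of them, *Noct*, a clock-controlled gene that begins 781 kb away, lay at 46.8 ± 4.44 CPM in parental cells and 39.9 ± 6.27 CPM in E6.2. *Elf2* lay at 89.0 ± 11.8 and 92.5 ± 6.03 CPM, *Setd7* at 151 ± 13.5 and 157 ± 7.78 CPM, and *Foxo1*, another forkhead factor, at 207 ± 14.0 and 173 ± 7.15 CPM (SD, n = 3). No gene between *Slc7a11* and *Noct*, and none on its other side within this window, was expressed highly enough to tell.

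**Figure D2:**
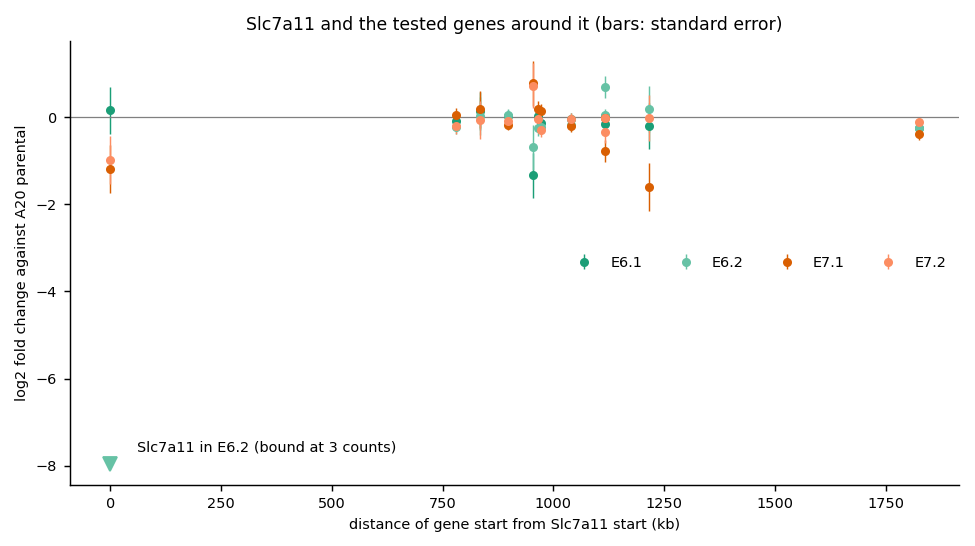
Log2 fold change of each clone against A20 parental cells (vertical axis, bars are standard errors) by the distance in kb of each tested gene's start from that of *Slc7a11* (horizontal axis). The downward triangle at 0 kb is the bound for *Slc7a11* in E6.2 at 3 counts, while the 11 other genes of E6.2 lie between -0.69 and 0.69.

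The genes whose levels followed *Slc7a11* most closely over the 15 libraries, by Pearson's r of log2 CPM, were *Sumf2* (r = 0.981), *Cdk14* (0.968), *Slc24a2* (0.961), *Atp6ap1l* (0.951) and *Nlrc4* (0.946). All 5 were low in E6.2, and these values describe that 1 line more than the others. *Sumf2*, a modifier of sulphatases, lay at 14.7 CPM in parental cells and 0.182 CPM in E6.2, *Nlrc4*, an inflammasome sensor, at 6.59 and 0.268 CPM, and *Atp6ap1l* at 2.39 and 0 CPM. They lie on chromosomes 4, 5, 13 and 17, away from *Slc7a11*.

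*Slc3a2*, the chaperone subunit that Slc7a11 shares with other amino acid transporters, stayed at a high level where *Slc7a11* had no counts. The parental libraries lay at 300.02, 306 and 290 CPM and the E6.2 libraries at 300.5, 311 and 458 CPM, so that the groups overlapped and replicate 3 of E6.2 was the high library. In E6.1 the values were 339, 318 and 320 CPM and in E7.2 338, 334 and 348 CPM, both above all parental libraries. In E7.1 they were 213, 333 and 311 CPM. E6.1 differed from parental cells by a log2 fold change of 0.13 (standard error 0.18), E6.2 by 0.26 (0.18), E7.1 by -0.06 (0.18) and E7.2 by 0.19 (0.18). None of the 3 that were tested, E6.1 and the exon 7 clones, was past the threshold (adjusted p from 0.650 to 0.983, edgeR). Per kb, *Slc3a2* exceeded *Slc7a11* by 28.6 to 69.3 times in parental cells, 33.9 to 44.5 times in E6.1, 71.2 to 134 times in E7.1 and 60.9 to 359 times in E7.2.

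*Gclc* and *Gclm*, the subunits of the rate-limiting ligase, differed between lines in similar ways. Within each clone the replicates did not stand in the same order in both genes, though in E7.2 replicates 1 and 2 were nearly equal in *Gclc*. *Gclc* lay at 94.9, 73.6 and 77.0 CPM in parental cells, 64.1, 64.9 and 67.3 CPM in clone E6.1, 64.3, 72.0 and 85.8 CPM in clone E6.2, 132, 85.4 and 87.5 CPM in E7.1 and 69.5, 69.5 and 57.0 CPM in E7.2. *Gclm* lay at 106, 77.7 and 78.6 CPM in parental cells, 73.4, 68.8 and 69.7 CPM in clone E6.1, 65.5, 80.8 and 79.4 CPM in clone E6.2, 134, 98.2 and 93.7 CPM in E7.1 and 70.8, 69.8 and 62.7 CPM in E7.2. Both were highest in replicate 1 of E7.1 and lowest in replicate 3 of E7.2, and all E6.1 and E7.2 libraries lay below all parental libraries. Per kb, the ratio of *Gclm* to *Gclc* stayed between 0.571 and 0.71 over the 15 libraries, with a median of 0.651.

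Neither ligase gene passed the threshold against parental cells. For *Gclc* the log2 fold change was -0.32 (standard error 0.17) in E6.1, 0.31 (0.17) for E7.1 and -0.32 (0.17) for E7.2, at adjusted p from 0.332 to 0.832 (edgeR). *Gclm* had -0.31 (0.16), 0.32 (0.16) and -0.36 (0.16) in the same clones, with adjusted p from 0.281 to 0.821 (edgeR). Between the exon 7 clones, all E7.2 libraries lay below all E7.1 libraries in both genes. The log2 difference, E7.2 minus E7.1, was -0.64 (standard error 0.18, adjusted p = 0.171, edgeR) for *Gclc* and -0.68 (0.16, adjusted p = 0.0861) for *Gclm*. DESeq2's Wald test called both, at adjusted p = 0.0422 and 0.00803. Without replicate 1 of E7.1 the differences were -0.40 and -0.50 (adjusted p = 0.732 and 0.459, edgeR).

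*Gss*, which adds glycine to complete glutathione, lay at 13.8, 12.3 and 12.0 CPM in parental cells. It lay at 15.02, 18.5 and 16.7 CPM in E7.1 and at 15.4, 16.1 and 15.8 CPM in E7.2, above all parental libraries in both clones. E6.1 ranged from 11.8 to 14.9 CPM, and E6.2 ranged from 11.3 to 22.1 CPM, overlapping the parental range. On the log2 scale these differences, 0.40 (standard error 0.21) for E7.1 and 0.32 (0.21) for E7.2, stayed short of the threshold (adjusted p = 0.290 and 0.493, edgeR).

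*Gpx4*, the lipid peroxide reductase, lay at 100.45, 61.8 and 76.8 CPM in parental cells and at 101, 109 and 106 CPM in E7.2, where all 3 libraries stood above the parental range. Its log2 fold change there was 0.41 (standard error 0.27, adjusted p = 0.505, edgeR). The other clones overlapped the parental line, with 74.8 to 93.5 CPM for E6.1, 55.3 to 132 CPM in E6.2 and 76.3 to 122.8 CPM in E7.1.

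*Aifm2*, the second defence against lipid radicals, was scarce in all lines. Its parental libraries lay at 7.17, 6.57 and 6.38 CPM and its E6.2 libraries at 8.07, 7.92 and 13.3 CPM, so that E6.2 stood above the parental range. There the log2 fold change was 0.54 (standard error 0.24). In E6.1 and the exon 7 clones the libraries overlapped those of parental cells, at 5.25 to 11.1 CPM, and no log2 fold change was beyond 0.31.

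*Acsl4*, which supplies the oxidisable lipids, lay at 148, 115 and 117 CPM in parental cells. In E6.1 it lay at 96.5, 99.8 and 98.5 CPM and in E7.2 at 103, 103 and 102 CPM, below all parental libraries in both clones and with little spread. E7.1 overlapped the parental line at 116 to 155 CPM, and E6.2 spread widest, from 74.2 to 143 CPM. With log2 fold changes of -0.37 (standard error 0.19) for E6.1 and -0.30 (0.19) for E7.2, neither clone was past the threshold (adjusted p = 0.828 and 0.491, edgeR).

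*Tfrc*, the transferrin receptor, was the gene whose clones differed most after *Slc7a11*. Its parental libraries lay at 335, 296 and 290 CPM. In E7.1 they lay at 1384, 351 and 440 CPM, all above the parental range, and in E7.2 at 237, 223 and 143 CPM, all below it. E6.1 also lay below, at 271, 250 and 245 CPM, while E6.2, at 240, 291 and 189 CPM, overlapped the parental line.

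The log2 fold change of *Tfrc* against parental cells was 1.24 (standard error 0.39, adjusted p = 0.102, edgeR) in E7.1, -0.61 (0.39, adjusted p = 0.485) in E7.2 and -0.26 (0.39, adjusted p = 0.983) in E6.1, and -0.36 (0.39) in E6.2. Between the exon 7 clones it was -1.85, E7.2 minus E7.1 (standard error 0.40), which missed the threshold at an adjusted p of 0.0563 (edgeR). DESeq2's Wald test called *Tfrc* in E7.1 against parental cells (adjusted p = 0.0237) and between the exon 7 clones (adjusted p = 0.000381). Replicate 1 of E7.1 stood 3.15-fold above the next E7.1 library, as far as or farther than in 35 of the 13904 genes (0.252%). Without it the log2 fold change of E7.1 against parental cells was 0.37 (standard error 0.22, adjusted p = 0.512, edgeR) and the difference between the exon 7 clones was -0.98 (0.22, adjusted p = 0.127).

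*Fth1*, the iron store, did not mirror the line means of *Tfrc*. It lay at 877, 1092 and 1459 CPM in parental cells, 1112, 958 and 984 CPM in clone E6.1, 716, 818 and 1671 CPM in clone E6.2, 915, 1193 and 947 CPM in E7.1 and 813, 780.01 and 1841 CPM in E7.2. All clones overlapped the parental range, and the log2 fold changes lay between -0.17 and 0.00. In E6.2 and E7.2 only replicate 3 kept the lines from lying below the parental range. Over 23 alternatives the log2 fold change ran from -0.58 to 0.12 in E6.2 and from -0.49 to 0.22 in E7.2. Replicate 3 of both E6.2 and E7.2 were the high libraries, each over the next library of its line by 2.04-fold and 2.26-fold. In both, *Tfrc* was at the lowest level of its line. Per kb, *Fth1* exceeded *Tfrc* by 4.72 times in replicate 1 of E7.1 and by 63.3 and 91.6 times in replicate 3 of both E6.2 and E7.2, with a median of 25 times over the 15 libraries.

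**Figure D3:**
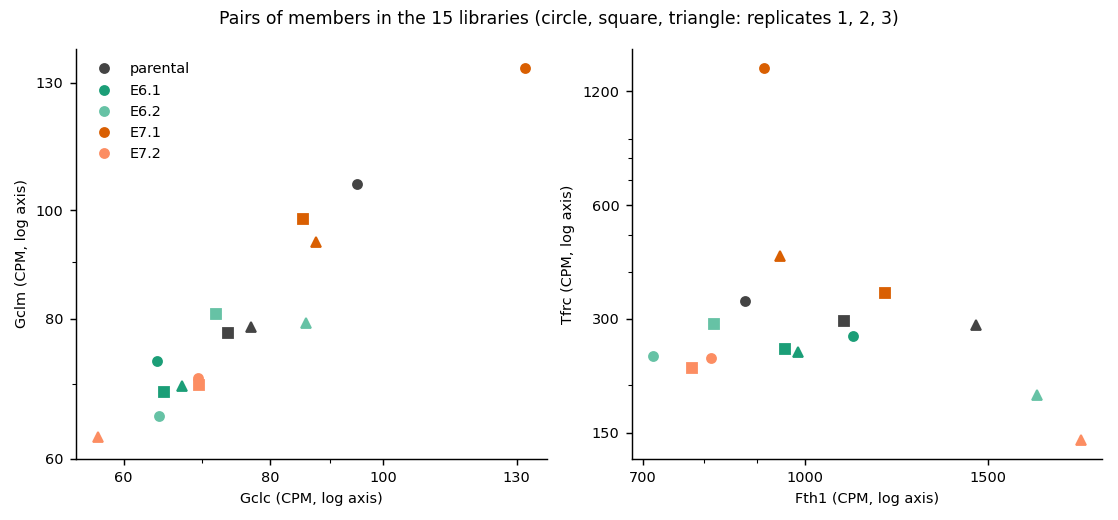
Each point is 1 of the 15 libraries, with *Gclm* against *Gclc* in the left panel and *Tfrc* against *Fth1* in the right panel, all in CPM on log axes. The ligase subunits rise together to 132 and 134 CPM in replicate 1 of E7.1, and that library stands alone at 1384 CPM of *Tfrc* while replicate 3 of both E6.2 and E7.2 have the most *Fth1*.

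Some libraries were the highest or lowest of their line in several of the genes. With 3 libraries per line this is common, and the share over all genes was not counted. Replicate 1 of the parental line had the highest *Gclc*, *Gclm*, *Gss*, *Gpx4*, *Aifm2*, *Acsl4* and *Tfrc* of its line and the lowest *Slc7a11* and *Fth1*. Replicate 1 of E7.1 had the lowest *Slc7a11*, *Slc3a2*, *Gss*, *Gpx4*, *Aifm2* and *Fth1* of its line and the highest *Gclc*, *Gclm*, *Acsl4* and *Tfrc*. Replicate 3 of E6.2 had the highest *Slc3a2*, *Gclc*, *Gss*, *Gpx4*, *Aifm2* and *Fth1* of its line and the lowest *Acsl4* and *Tfrc*. Replicate 3 of E7.2 had the highest *Slc3a2*, *Aifm2* and *Fth1* of its line and the lowest *Slc7a11*, *Gclc*, *Gclm*, *Acsl4* and *Tfrc*. Replicate 3 of E6.2 and replicate 3 of E7.2 also had the lowest TMM factors of the 15 libraries, 0.906 and 0.826. What set the libraries named here apart was not tested.

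Counted over the 9 genes other than *Slc7a11*, none was called by edgeR's quasi-likelihood test in E6.1, E7.1 or E7.2 against parental cells. In E6.1, where 0.324% of all genes tested were called, 0 of the 9 were called and 0 had an unadjusted p under 0.05, a level that 6.71% of all genes reached. In E7.1, with 1.22% of all genes called, 0 were called and 1 (*Tfrc*) had an unadjusted p under 0.05, against 20% of all genes. In E7.2, with 0.295% called, 0 were called and 1 (*Gclm*) had an unadjusted p under 0.05, against 13.3% of all genes. DESeq2's Wald test and edgeR's likelihood ratio test each called 1 in E7.1 (*Tfrc*) and 0 in E6.1 and in E7.2. Of all genes, these tests called 1157 and 748 in E7.1, 155 and 125 in E6.1, and 254 and 157 in E7.2. In E6.2, where 1.17% of all genes were called, *Slc7a11* was the only one of the 10 at an adjusted p under 0.05, a count that the choice of genes fixed, and 1 of the other 9 (*Aifm2*) lay with all libraries above and 0 below the parental ones (6.13% and 8.61% of all genes).

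The median log2 fold change of the 9 was -0.17 for E6.1, 0.29 for E7.1 and 0.00 for E7.2, beside 0.00, -0.02 and 0.00 over all genes tested. In E6.1, 1 of the 9 lay with all libraries above and 4 with all libraries below the parental ones, where 11.3% and 11.2% of all genes did. The counts were 2 above and 0 below in E7.1 (16.4% and 15.6% of all genes) and 3 above and 4 below in E7.2 (10.8% and 13.3%). Between the exon 7 clones, where 0.59% of all genes were called, 0 of the 9 were called. At an unadjusted p under 0.05 stood 3 of them (13.3% of all genes). DESeq2's Wald test called 3 and edgeR's likelihood ratio test 2, beside 287 and 239 of all genes. There E7.2 lay with all libraries above E7.1 in 1 gene and below it in 4, against 12.4% and 12.7% of all genes. Between the exon 6 clones, where 1.24% of all genes were called, 0 of the 9 were called by edgeR's quasi-likelihood test, and 0 had an unadjusted p under 0.05 (12.9% of all genes). DESeq2's Wald test and edgeR's likelihood ratio test also called 0 of the 9, beside 448 and 396 of all genes. E6.2 lay with all libraries above E6.1 in 1 (*Aifm2*) and below it in 0, against 7.34% and 10.2% of all genes.

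**Figure D4:**
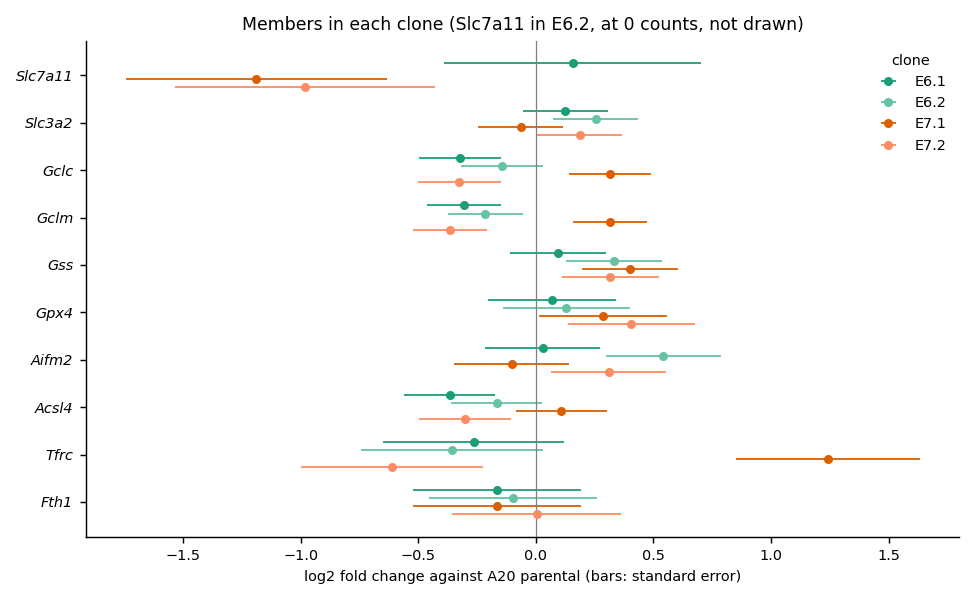
Log2 fold change of the 10 genes in each clone against A20 parental cells, with standard errors as bars and a color per clone, leaving out *Slc7a11* in E6.2, which had 0 counts. *Tfrc* in E7.1 stands farthest to the right at 1.24 and *Slc7a11* in E7.1 farthest to the left at -1.19.

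The wider pathway was followed in 84 further genes, of which 75 passed the filter. Against parental cells 2 were called, both in E7.1 and both higher, and 0 in the other 3 clones. At an unadjusted p under 0.05 stood 1 of the 75 for E6.1 (6.71% of all genes), 12 for E6.2 (13.1%), 31 for E7.1 (20%) and 6 for E7.2 (13.3%). DESeq2's Wald test called 0, 5, 12 and 1 of them in the same clones, where it called 155, 398, 1157 and 254 of all genes. The likelihood ratio test of edgeR called 0, 1, 6 and 0, where it called 125, 312, 748 and 157 of all genes.

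The genes called in E7.1 were *Hmox1*, the heme oxygenase that frees iron from heme, and *Pgd*, which makes NADPH in the pentose phosphate pathway, and both are known targets of Nrf2. *Hmox1* lay at 161, 124 and 141 CPM in parental cells and 519, 234 and 221 CPM in E7.1, which is 1.19 higher on the log2 scale (standard error 0.25, adjusted p = 0.0400, edgeR). *Pgd* lay at 84.3, 53.9 and 48.9 CPM in parental cells and 193, 103 and 119 CPM in E7.1, which is 1.15 higher (0.25, adjusted p = 0.0420). All E7.1 libraries stood above all parental libraries in both genes, and replicate 1, the library with the high *Tfrc*, was the highest. Without that library the log2 fold changes were 0.68 and 0.84 and neither gene was called (adjusted p = 0.0898 and 0.232, edgeR), and over 23 alternatives *Hmox1* was called in 13 and *Pgd* in 12.

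The regulators of the pathway were also read. *Nfe2l2*, which encodes Nrf2, lay at 144 ± 27.6 CPM in parental cells and 92.1 ± 12.5 CPM in E7.1, a log2 difference of -0.65 (standard error 0.25, adjusted p = 0.166, edgeR), with all E7.1 libraries below the parental ones. *Atf4*, the amino acid stress factor that drives *Slc7a11* transcription, lay at 673 ± 122 CPM in parental cells, 819 ± 151 CPM in E6.2 and 611 ± 175 CPM in E7.1 (SD, n = 3). The 4 clones differed from the parental line by -0.14 to 0.28 on the log2 scale, and all overlapped it. *Trp53*, which encodes a repressor of *Slc7a11*, lay at 86.4 ± 14.8 CPM in parental cells, 113 ± 15.4 CPM for E6.1, 127 ± 6.88 CPM for E6.2, 92.6 ± 15.9 CPM for E7.1 and 88.3 ± 8.76 CPM for E7.2, with all E6.1 and all E6.2 libraries above the parental ones. Its log2 fold change was largest in E6.2, at 0.55 (standard error 0.16, adjusted p = 0.151, edgeR), where DESeq2's Wald test called it (adjusted p = 0.0341). In the other 3 clones adjusted p lay between 0.621 and 0.943 (edgeR).

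When the exon 7 clones were compared with the exon 6 clones, 12 of the 75 pathway genes were called higher and 9 lower, where 12.1% of all genes tested were called, 6.21% higher and 5.85% lower. Of the 9 listed genes other than *Slc7a11*, 0 were called and 1 (*Tfrc*, log2 difference 0.63, standard error 0.27, adjusted p = 0.142, edgeR) had an unadjusted p under 0.05 (30.3% of all genes). DESeq2's Wald test and edgeR's likelihood ratio test called 0 of the 9, beside 2684 and 2254 of all genes. The genes given here for this comparison were named after their values were seen. Higher in the exon 7 clones were *G6pdx* (log2 difference 0.89, standard error 0.17, adjusted p = 0.00857, edgeR), which with *Pgd* makes NADPH, and *Gsr* (0.64, 0.16, adjusted p = 0.0218), which uses it to reduce glutathione. *Aco1* (0.54, 0.14, adjusted p = 0.0244), whose protein doubles as iron regulatory protein and then binds the hairpins shown above, and the iron importer *Slc39a14* (0.37, 0.08, adjusted p = 0.0116) were higher as well, as was *Sephs2* (0.62, 0.15, adjusted p = 0.0192), needed for selenoproteins such as Gpx4, while *Sepsecs* (-0.58, 0.14, adjusted p = 0.0218), needed for them as well, was lower. The desaturases *Scd1* (1.79, 0.38, adjusted p = 0.0129) and *Scd2* (1.01, 0.29, adjusted p = 0.0389) make monounsaturated fatty acids, which resist oxidation. They were the highest by size with *Dhcr7* (1.12, 0.29, adjusted p = 0.0272), which consumes the radical-trapping sterol 7-dehydrocholesterol. The *Scd2* mean was highest for E7.1, at 1559 CPM, and lowest for E6.2, at 388 CPM. For E7.2 it was 1036 CPM, with libraries from 382 to 1414 CPM, close to 1022 CPM for E6.1 and 1002 CPM for parental cells. Libraries of E7.2 and E6.1 also overlapped in *G6pdx*, *Gsr*, *Slc39a14*, *Sephs2*, *Dhcr7* and *Scd1*. For *Scd1* they ran from 88.4 to 301 CPM in E7.2 and from 84.4 to 213 CPM in E6.1.

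Of the genes described before, *Pgd* (0.75, 0.18, adjusted p = 0.0192, edgeR) and *Hmox1* (0.62, 0.18, adjusted p = 0.0406) were also higher and *Trp53* (-0.41, 0.11, adjusted p = 0.0346) was lower. The *Hmox1* mean was high in E7.1 alone, at 324 CPM, while E7.2 at 141 CPM lay between E6.1 at 118 and E6.2 at 165 CPM. For *Pgd* the means were 139 CPM in E7.1 and 70.3 in E7.2, beside 62.3 in E6.1 and 55.7 in E6.2. Lower in the exon 7 clones were further *Sqstm1* (-1.13, 0.31, adjusted p = 0.0326, edgeR), whose protein draws Keap1 away from Nrf2, the lipid-oxidising reductase *Cyb5r1* (-1.11, 0.26, adjusted p = 0.0184) and *Sat1* (-0.99, 0.28, adjusted p = 0.0358), a p53 target of polyamine breakdown. In these genes the libraries of E7.2 overlapped those of E6.1. *Sqstm1* ran from 169 to 568 CPM in E7.2 and from 291 to 529 CPM in E6.1. *Cyb5r1* ran from 118 to 284 and from 182 to 274 CPM, and *Sat1* from 61.3 to 173 and from 98.7 to 137 CPM. Their E7.2 means, 305, 175 and 102 CPM, lay near the parental means of 329, 181 and 98.2 CPM. The lipoxygenase *Alox12* had the largest difference (-2.67, 0.69, adjusted p = 0.0267) at means under 1 CPM in all clones. Both exon 7 clone means lay on 1 side of both exon 6 clone means in 56% of the 75 pathway genes tested, beside 48.1% of all genes tested. These p values rest on the spread between libraries, since 2 clones against 2 cannot give an exact permutation p under 0.333. Without replicate 1 of E7.1, 9 of the 75 were called in place of 21, while the count over all genes went from 1677 to 780. With replicate 3 of both E6.2 and E7.2 left out, 37 of the 75 and 4734 of all genes were called, and with them 3 of the 9 listed genes (*Gclc*, *Gss* and *Gpx4*).

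**Figure D5:**
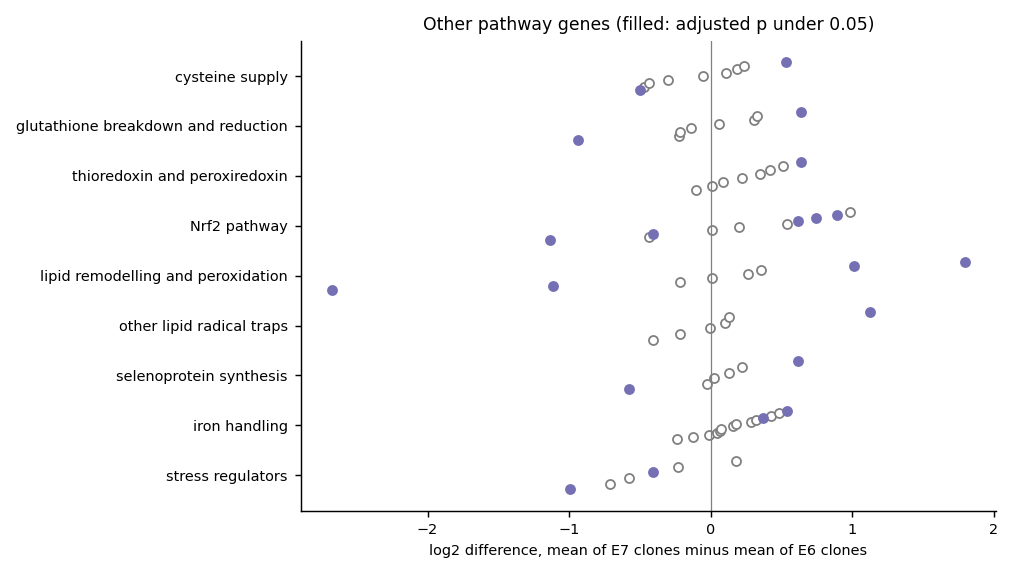
Log2 difference, mean of the exon 7 clones minus mean of the exon 6 clones, of the 75 pathway genes tested, in rows by role, with filled points for an adjusted p under 0.05. The 21 filled points fall on both sides of 0, from -2.67 in *Alox12* to 1.79 in *Scd1*.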

How the data were processed

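RNA from A20 parental cells and 4 *Foxp1* CRISPR clones was sequenced in 15 libraries. The authors deposited raw counts of read pairs per gene. Per the file headers and the submitters' processing notes, reads were aligned with HISAT and counted with featureCounts 1.5.0 on a GRCm38 annotation (given as mm10 in the notes) with ERCC spike-ins, whose counts were all 0. Strand was not used, and pairs placed at more than 1 site or gene were not counted. Symbols were matched by Ensembl identifier for 40254 of 41388 genes.

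In R 4.3.3, genes were filtered with filterByExpr (13904 kept), normalized by TMM and fitted in edgeR 4.0.16 with a quasi-likelihood model of all 15 libraries, with line as the only factor and Benjamini-Hochberg adjustment within each comparison. Calls are at an adjusted p under 0.05. No 2 libraries were copies. The method was tested on simulated data. Alternatives were DESeq2 1.42.0's Wald test, edgeR's likelihood ratio test and newer quasi-likelihood method, DESeq2's size factors, no filter, only the lines compared, a 2-fold threshold, a replicate block, fits without 1 library, and a fit without replicate 3 of both E6.2 and E7.2. The 10 genes, the other lists and the alternatives were chosen with earlier results of these data known. Genes named by rule were the 10, *Foxp1*, *Atf4*, *Nfe2l2*, *Trp53*, pathway genes called against parental cells, genes that start within 2 Mb of *Slc7a11* and the 5 that correlated best with it. Promoters are from RefSeq and transcripts from GENCODE.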

Additional observations from a re-analysis of the deposited data

Results flagged for a closer look

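*Tfrc* stood out because all 3 libraries of E7.1 lay above and all 3 of E7.2 below those of parental cells, although both clones carry a mutation in exon 7 of *Foxp1*. The log2 difference, E7.2 minus E7.1, was -1.85 (standard error 0.40), and the test of this difference missed the threshold (adjusted p = 0.0563, edgeR's quasi-likelihood test). It was called in 8 of 23 alternatives, with adjusted p from 0.000381 to 0.327.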

How the results depend on the processing

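The counts over the 10 genes include *Slc7a11* wherever E6.2 enters, which the choice of the list fixed and which says nothing about stability. Against parental cells this made a count of 1, with 0 of the other 9 genes called, and 2 with no filter, with DESeq2's Wald test, with edgeR's likelihood ratio test and in a fit that leaves out the replicates 3 of both E6.2 and E7.2, the added gene being *Tfrc* in E7.1. Leaving out each library in turn gave 1 to 1. Over the comparisons between clones the count was 2, both of them *Slc7a11* (E6.2 against E6.1, and exon 7 against exon 6 clones), and 5 with DESeq2's Wald test, 4 with the likelihood ratio test, 5 without both replicates 3 and 2 to 5 without 1 library (5 without replicate 3 of E6.2). For the 75 pathway genes against parental cells it was 2, and 5 with no filter, 18 with DESeq2's Wald test, 7 with the likelihood ratio test, 25 without both replicates 3, 0 with only the lines compared and 0 to 16 without 1 library (16 without replicate 1 of parental cells, 12 and 9 without replicate 3 of E6.2 or E7.2). For all genes it was 418, and 686, 1964, 1342 and 2840 in the first 4 of these fits and 180 to 1438 without 1 library (180 without replicate 3 of parental cells, 1438 without that of E6.2). The median log2 fold change in E6.2 of the genes around *Slc7a11* was -0.17 and lay between -0.23 and -0.04 (-0.0403 without replicate 1 of parental cells). With the replicate number as a block the counts were 1, 3, 2 and 377, but libraries of the same number did not deviate together in every pair, so the numbers were not taken to pair the libraries. Mean levels of *Slc7a11* moved by less than 1 SD with DESeq2's size factors and with total counts as the scale, and no call changed direction under these alternatives. The cause of these changes was not tested.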
